A study of Zea mays with 7 samples.

Results

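Broad shared H3K9ac sites are places in the maize genome where a long H3K9ac-enriched region was listed in both husk and V2-IST and the husk region was moderately longer. A site was chosen when exactly 1 husk region and 1 V2-IST region overlapped each other, by at least 1 bp, and neither overlapped any other region of the other tissue. In addition, the V2-IST region had to be at least 1500 bp long, and the husk length divided by the V2-IST length had to be over 1 and under 2.5. The rule selected 598 of the 15878 sites at which regions of both tissues paired one to one (3.77%). Both lengths and their ratio therefore chose the sites, and they are given below as a description only.

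Histone H3 acetylated at lysine 9 (H3K9ac) is a mark of active chromatin. It is laid down by histone acetyltransferases and removed by histone deacetylases, and in plants it is found mainly just downstream of the start of transcribed genes and also at active enhancers. A region in these lists is a stretch in which chromatin pulled down with an antibody against the mark was sequenced more often than input DNA, so its length describes how far the enrichment passed the caller's limit. The lists give no measure of strength.

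The data come from ChIP-seq with the antibody ab10812 in the inbred line B73, grown in a greenhouse, with 3 husk samples, 2 V2-IST samples and 1 input DNA sample for each tissue. Husk is the soft inner leaf layer around the ear, collected from flowering plants when silks emerged and before pollination, and V2-IST is the inner stem of young seedlings at stage V2. Both are whole tissues of several cell types from pooled plant material, so a region may come from some of the cells only. The deposited lists hold 28004 husk and 17170 V2-IST regions on the B73 genome AGPv4, each given by its chromosome, start and end, without signal, score or depth.

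Each list combines the replicates of its tissue. The lists thus give no spread between replicates, no test between the tissues was made, and the 95% intervals given below (Wilson intervals for shares, order statistics for medians) cover counting error over sites only. The husk list combines 3 replicates and the V2-IST list 2. The part of this difference, and of sequencing depth, in the region lengths was not tested.

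Long regions were frequent in husk and rare in V2-IST. In the husk list 7323 regions (26.1%) reached 1500 bp, against 781 (4.55%) in the V2-IST list. The broad shared sites held 76.6% of these 781 V2-IST regions. Of the remainder, 37 overlapped no husk region, 2 overlapped several husk regions, and 27 lay in a husk region that also held another V2-IST region. At 70 one-to-one sites the V2-IST region was at least as long as the husk region, and at 47 the husk region was at least 2.5 times as long. By contrast, 3265 husk regions of at least 1500 bp overlapped no V2-IST region at all. The broad shared sites covered 1657764 bp in husk, which was 4.58% of the length of the husk list, and 1168328 bp in V2-IST, which was 9.55% of the length of the V2-IST list.

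At the 598 sites the husk region had a median length of 2543.5 bp (quartiles 2064.25 and 3265.5 bp, range 1599 to 7379 bp). The V2-IST region had a median of 1796 bp (quartiles 1624 and 2143.5 bp, range 1500 to 4680 bp). The V2-IST region was under 2000 bp at 394 sites, so most lay close to the length limit, and the husk regions were spread more widely. The husk region was longer by a median of 577 bp, and the median length ratio was 1.31 (quartiles 1.15 and 1.63). A ratio over 1 was required by the rule, and 97.4% of all one-to-one sites had one.

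**Figure D1:**
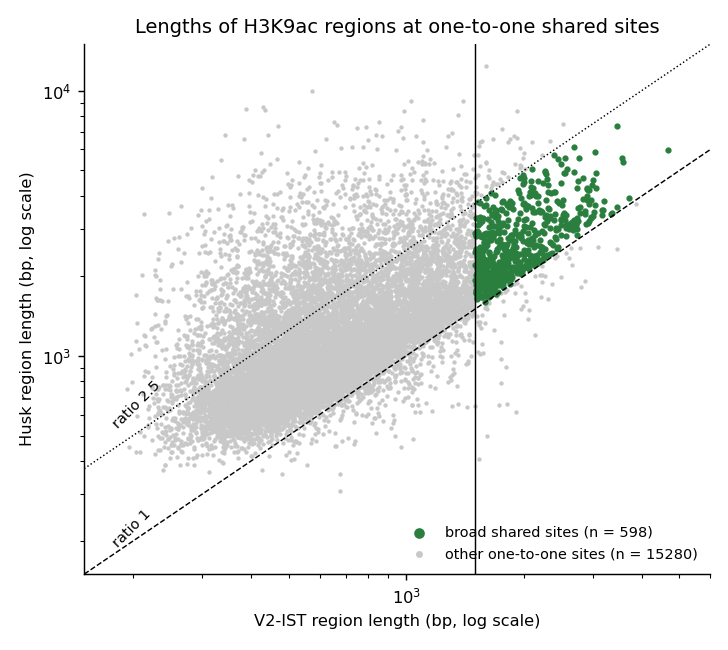
Husk region length (vertical, bp, log scale) against V2-IST region length (horizontal, bp, log scale) for all one-to-one shared sites. Each point is 1 site, the 598 broad shared sites are green, the vertical line is the limit of 1500 bp, and the dashed and dotted lines are ratios of 1 and 2.5, so the green points fill the wedge between the 3 lines.

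Within the range that the rule allowed, small ratios were the most frequent. The husk region was at most 1.2 times as long at 203 sites (33.9%), over 1.5 times as long at 198 sites (33.1%), and at least 2 times as long at 57 sites (9.53%). Over all one-to-one sites, 58.2% had a ratio over 1.5 and 28.9% a ratio of 2 or more. Since the rule used these ratios, nothing is read from the difference. Across the 598 sites, longer V2-IST regions went with longer husk regions (Spearman's rho = 0.61), a relation that the ratio limits partly set.

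The ratio was smallest where the V2-IST region was longest. The 265 sites with the shortest V2-IST regions, closest to the limit of 1500 bp, had a median ratio of 1.31. For the 129 sites from 2000 to under 2500 bp it was 1.33. The 57 sites from 2500 to under 3000 bp had a median ratio of 1.24, and the 18 sites of 3000 bp or more had 1.18. The median added husk length stayed between 510 and 727 bp in all 5 length classes. V2-IST length is the divisor of the ratio, and the rule used both, so nothing is read from this trend.

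The longest V2-IST region of the set lay at chr7:111239833-111245821, where the husk region measured 5989 bp and the V2-IST region 4680 bp. The husk region extended 52 bp beyond the V2-IST region on the side of lower coordinates and 1257 bp on the other. This site stood alone, with the next husk region 93538 bp away. The second longest V2-IST region, at chr7:1371043-1374991, had nearly the same extent in both tissues, with 3949 bp in husk and 3720 bp in V2-IST.

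The longest husk region of the set was at chr1:277128747-277136125, with 7379 bp in husk and 3455 bp in V2-IST. Here the added husk length lay on both sides, 2333 bp toward lower and 1591 bp toward higher coordinates. The second longest husk region, at chr7:177940311-177946428, measured 6118 bp in husk and 2678 bp in V2-IST. At chr7:153018224-153024078 the husk region of 5855 bp extended 86 bp beyond one end of the V2-IST region of 3034 bp and 2735 bp beyond the other. At chr5:211349888-211355607 the husk region of 5720 bp was 2.40 times as long as the V2-IST region of 2383 bp. Very long husk regions in this set therefore came in several shapes, from 2-sided to almost entirely 1-sided.

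Each of the 10 chromosomes had a site with a V2-IST region of at least 2824 bp. On chromosome 1 the longest was 3578 bp, in a husk region of 5391 bp, and on chromosome 2 it was 3554 bp, in a husk region of 5587 bp. On chromosome 9 both tissues had almost the same extent, 3632 bp in husk and 3453 bp in V2-IST. Chromosomes 3, 6 and 8 were similar in this respect, with ratios of 1.10, 1.11 and 1.12. On chromosomes 4, 5 and 10 the husk region was clearly longer, with ratios of 1.66, 1.60 and 1.44.

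The limits of the rule cut through a continuous range of values. Just inside the length limit, 2 sites had V2-IST regions of 1500 bp, with husk regions of 2200 and 2912 bp. Just outside it, V2-IST regions of 1499 and 1498 bp lay in husk regions of 2562 and 3104 bp. The lowest ratios inside the set were 1.004 and 1.007, and the closest ratios outside were 0.999 and 0.991. At the upper limit, the closest ratios were 2.496 and 2.485 inside and 2.523 and 2.580 outside.

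The sites were further described by measures that the rule did not use, beside the same measures at narrower shared sites. The narrower shared sites are the 12201 one-to-one sites with a V2-IST region under 1500 bp and a ratio in the same range. Their median lengths were 921 bp in husk and 603 bp in V2-IST, with a median ratio of 1.52. Because length differs by construction, measures that scale with length are pointed out as such.

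The first question was where the V2-IST region sat within the husk region. At 523 of the 598 broad shared sites (87.5%, 95% interval 84.6 to 89.9%) the husk region enclosed the whole V2-IST region, against 91.7% (91.2 to 92.2%) of the narrower sites. At the other 75 broad sites the V2-IST region reached past 1 end of the husk region, by a median of 76 bp, and at no site past both. At the narrower sites that reached past an end, this median was 32 bp. The largest overhang at a broad site was 1840 bp. Nesting was least frequent where the lengths were most alike, with 77.8% of the broad sites at ratios up to 1.2 and 94.7% at ratios of 2 or more. A husk region barely longer than the V2-IST region has little room to enclose it, so nesting depends on the ratio. The rule used this ratio, and its median was 1.31 at broad and 1.52 at narrower sites. The difference in nesting between the classes is therefore not read further.

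The division of the added husk length between both ends was described by the share on the longer side. At the 523 nested broad sites, the longer side held a median of 76.7% of the added length (95% interval 74.9 to 78.6%; quartiles 63.9 and 88.1%). At the 11189 nested narrower sites, it held 70.5% (70.2 to 70.9%; quartiles 60.0 and 81.3%), and over all other one-to-one sites 72.9%. By definition this share cannot fall below 50%, and the full range from 50% up to 100% occurred. A V2-IST region placed at random would also give shares above 50%. Departure from random placement was not tested, so the values serve only to compare the classes. The difference between both medians was small beside the spread over sites.

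In base pairs, the longer side measured a median of 495 bp at the broad sites and 213 bp at the narrower sites. The shorter side measured 119 bp at the broad sites and 88 bp at the narrower sites. Most of the difference in added length between the classes was on the longer side. By definition this side holds at least 50% of the added length at each site, so nothing further is read from this. The longer side held over 90% of the added length at 103 broad sites (19.7%, 16.5 to 23.3%), at 8.97% (8.46 to 9.52%) of the narrower sites and at 13.5% of all other one-to-one sites. This share changed gradually with length across the limit of the rule. It was 9.62% at V2-IST lengths of 500 to under 1000 bp, 15.9% at 1000 to under 1500 bp, 17.3% at 1500 to under 2000 bp and 24.4% from 2000 bp on, and the median share of the longer side was 74.8% just below the limit and 77.2% just above it. At 44 nested sites of the same V2-IST length outside the ratio limits, 15 (34.1%) were this 1-sided. An extension of at least 500 bp on 1 side with under 200 bp on the other was found at 147 broad sites (28.1%) and at 9.22% of the narrower sites. Both sides were at least 500 bp at 39 broad sites (7.46%) and at 0.375% of the narrower sites, and both were under 200 bp at 119 broad sites (22.8%) and at 46.5% of the narrower sites. These counts in base pairs scale with region length.

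**Figure D2:**
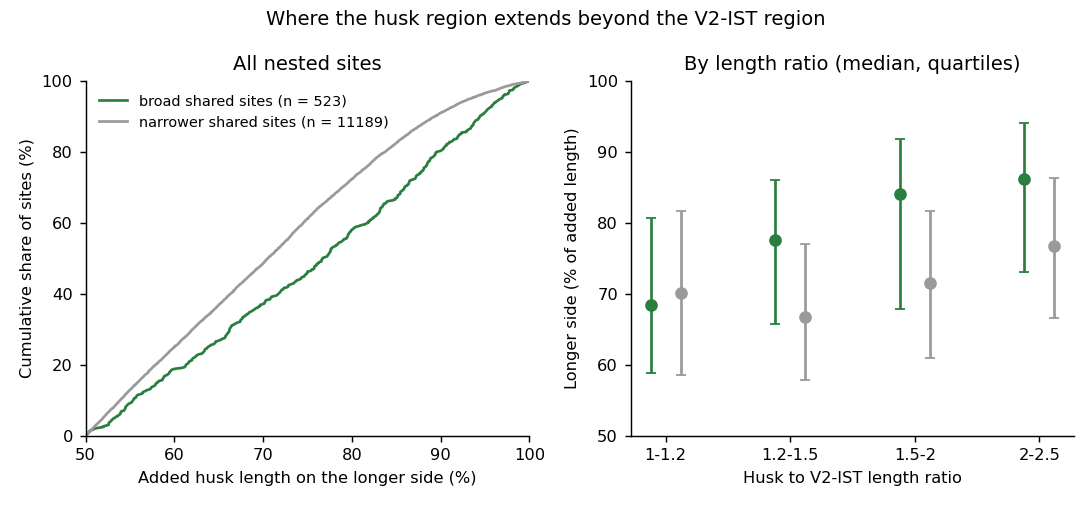
Share of the added husk length that lay on the longer side, for sites with the V2-IST region inside the husk region: the cumulative share of sites on the left, and the median (point) with quartiles (bars) by husk to V2-IST length ratio on the right. Broad shared sites are green and narrower shared sites grey; the broad sites had the higher median in the 3 upper ratio classes and not at ratios up to 1.2.

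The share on the longer side depended on the ratio. At ratios up to 1.2 the longer side held a median of 68.4% at broad sites, against 70.1% at narrower sites, so that the order was the other way round there. At ratios over 1.2 and up to 1.5 it was 77.6% at broad and 66.7% at narrower sites. The values were 84.1% at broad and 71.5% at narrower sites for ratios over 1.5 and up to 2, and 86.2% at broad and 76.7% at narrower sites for ratios from 2 to 2.5. The broad sites with the largest ratios thus had the most 1-sided extensions, with a median of 1758.5 bp on the longer and 290.5 bp on the shorter side. At narrower sites of these ratios the medians were 458.5 bp and 127 bp. At a given ratio a longer region has more added length, so the classes still differed in length here. Whether the share differed apart from length was not tested.

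The longer side showed no preferred direction along the chromosome. It lay toward higher coordinates at 265 of the 523 nested broad sites (50.7%, 46.4 to 54.9%) and at 50.2% of the narrower sites. The added lengths on both ends were almost unrelated across the nested broad sites (Spearman's rho = -0.03, n = 523), and weakly and negatively related across the nested narrower sites (rho = -0.14, n = 11189).

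The direction of transcription gave an orientation for a subset of sites. Positions and strands on AGPv4 were at hand for 826 genes, the flanking genes that the study linked to its enhancer candidates as putative targets. These genes were chosen by expression: higher in the matching tissue for tissue-specific candidates, or present in both tissues for shared candidates. They are a selected part of all maize genes, and most sites could not be assigned to a gene in this way: 552 of the 598 broad sites had no listed gene start within 1 kb of the husk region. Such a gene start was found at 46 broad sites (7.69%, 5.82 to 10.1%) and at 251 narrower sites (2.06%, 1.82 to 2.32%). The stretch searched was wider at the broad sites, with a median of 4543.5 bp against 2921 bp at the narrower sites. With the gene start required to lie inside the V2-IST region, the numbers were 22 broad sites (3.68%) and 79 narrower sites (0.647%). No gene symbols or products were paired with these identifiers in the sources used here, so the genes are described by position only.

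At these 46 sites the V2-IST region mostly began close to the gene start, and the start of the husk region was more variable. Positions are given along the strand relative to the gene start, with negative values upstream. The husk region started at a median of -351.5 bp (quartiles -1229.5 and 22.75 bp) and ended at 2580 bp, and the V2-IST region started at 19.5 bp (quartiles -207.75 and 190.5 bp) and ended at 1883 bp. At the 251 narrower sites, the husk region started at -49 bp and ended at 1022 bp, and the V2-IST region started at 65 bp and ended at 712 bp. The V2-IST start and the gene start were at most 300 bp apart for 31 of 46 genes at broad sites (67.4%) and for 85.7% of those at narrower sites. For the husk start, this was so for 22 of 46 genes at broad sites (47.8%) and for 80.5% of those at narrower sites.

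Many genes at broad sites were covered almost from end to end. The husk region covered a median of 97.9% of the gene (quartiles 88.6 and 100%) and the V2-IST region 83.3% (quartiles 69.7 and 96.0%). At narrower sites the medians were 24.5% in husk and 15.8% in V2-IST. At least 90% of the gene lay inside the husk region at 31 of 46 genes at broad sites and 58 of 251 at narrower sites. For the V2-IST region, the counts were 17 of 46 genes at broad sites and 23 of 251 at narrower sites.

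**Figure D3:**
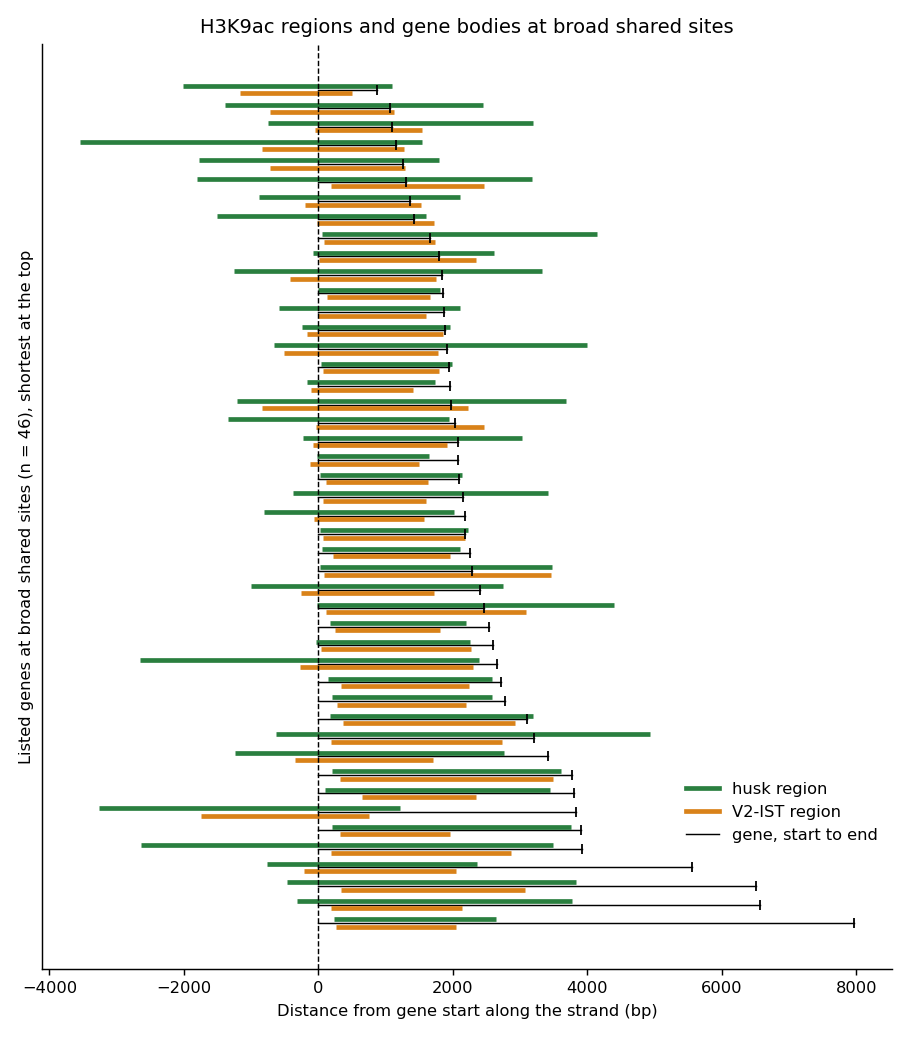
The 46 listed genes at broad shared sites, 1 per line and ordered by gene length, with distance from the gene start along the strand on the horizontal axis (bp). Green bars are husk regions, orange bars V2-IST regions and thin black lines the genes; 43 of the 46 genes lay by at least 50% inside the husk region and 39 inside the V2-IST region.

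The far ends of the regions were spread around the far end of the gene. Relative to the gene end, the husk region ended at a median of 43.5 bp (quartiles -258.75 and 922.25 bp), just past it, and the V2-IST region at -283.5 bp (quartiles -603 and 55.25 bp), a short way before it. At narrower sites the regions ended at -2999 bp in husk and at -3373 bp in V2-IST. The husk region passed the gene end at 25 of 46 genes and the V2-IST region at 13 of 46. Most region ends were over 300 bp from the gene end: within that distance lay the husk end at 18 and the V2-IST end at 17 of the 46 genes.

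The genes at broad sites were themselves short. Their median length was 2165.5 bp (quartiles 1857 and 3013.75 bp), against 4241 bp (1754.5 and 7234 bp) at narrower sites, and 4 of 46 genes at broad sites reached 4000 bp, against 131 of 251 at narrower sites. Across the 46 genes at broad sites, longer genes had V2-IST regions that ended farther downstream (Spearman's rho = 0.54), and the same was found more weakly for husk (rho = 0.40). Across the 251 genes at narrower sites, both relations had the opposite sign (rho = -0.20 for V2-IST and -0.24 for husk). The points of each relation share the 2 lists and the length limits of the class.

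Coverage of a gene depends on region length, which the rule used, and on gene length. Among genes of 1500 to under 2500 bp, the median coverage in husk was 99.3% at broad sites (21 genes) and 91.9% at narrower sites (35 genes). In V2-IST it was 92.2% at broad and 66.8% at narrower sites. Among genes of 2500 to under 4000 bp, the husk medians were 88.8% at broad sites (13 genes) and 30.2% at narrower sites (35 genes), and the V2-IST medians 69.6% at broad and 19.1% at narrower sites. Short genes were thus mostly covered in husk in either class, and the difference was large for genes of intermediate length. The split by gene length was added after the values had been seen.

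Broad regions did not always follow the gene body. For the longest listed gene at a broad site, Zm00001d028412 of 7960 bp, the husk region covered 30.3% and the V2-IST region 22.5%, in both cases in its first part. At Zm00001d023330, of 3822 bp, the husk region started at -3263 bp, upstream of the gene, and covered 31.8% of it, and the V2-IST region started at -1743 bp and covered 19.7%. Both genes were chosen after their values had been seen.

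**Figure D4:**
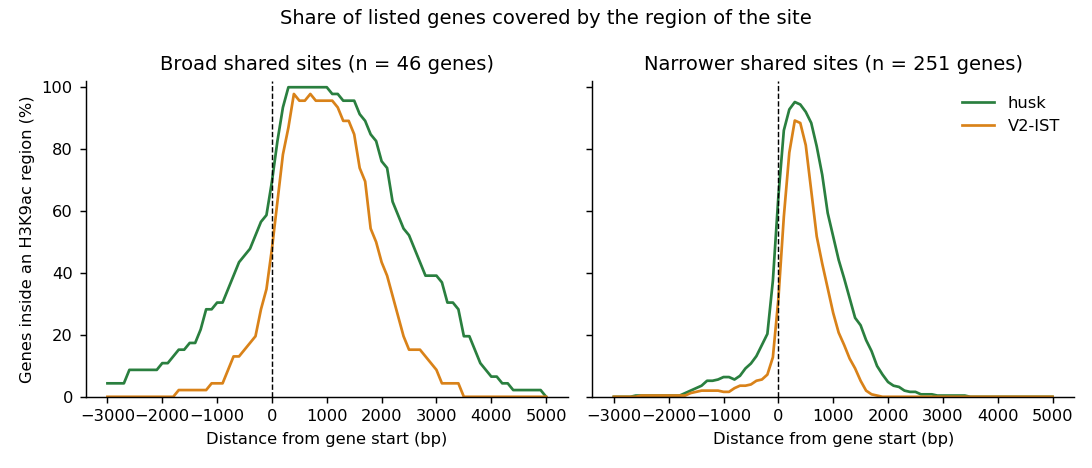
Percentage of listed genes whose husk (green) or V2-IST (orange) region at the site includes a position, plotted against the distance of that position from the gene start (bp, along the strand), for broad shared sites (left, 46 genes) and narrower shared sites (right, 251 genes). At 2000 bp downstream, 76.1% of the genes at broad sites lay in the husk region and 43.5% in the V2-IST region, against 4.78% and 0% at narrower sites.

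A longer husk region was required by the rule, and at most of these genes the added length lay at both ends of the V2-IST region. Added length is counted from the ends of the V2-IST region, so it can lie inside the gene. The V2-IST region reached farther upstream than the husk region at 1 gene and farther downstream at 3 genes. Husk added a median of 414.5 bp upstream and 503 bp downstream at broad sites, and 106 bp upstream and 237 bp downstream at narrower sites. More was added downstream than upstream at 29 of 46 genes at broad sites (63.0%, 48.6 to 75.5%) and at 71.7% (65.8 to 76.9%) of those at narrower sites, and these intervals overlap. The husk region started over 1 kb upstream of the gene at 14 of 46 genes at broad sites (30.4%, 19.1 to 44.8%) and at 16 of 251 at narrower sites (6.37%, 3.96 to 10.1%). The V2-IST region did so at 2 of 46 genes at broad sites (4.35%) and at 7 of 251 at narrower sites (2.79%). The added lengths and these starts scale with region length, which the rule used.

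Individual genes showed these forms. At Zm00001d046922, a gene of 1158 bp, the husk region started at -3541 bp and ended 386 bp past the gene end, and the V2-IST region started at -836 bp and ended 108 bp past it. At chr7:118586836-118590936, a site with a ratio just inside the upper limit and a gene of 1659 bp, the husk region began 32 bp before the V2-IST region and ended 2419 bp after it. At chr3:168476910-168480715, the site with the highest ratio, whose gene measured 2155 bp, husk added 458 bp upstream and 1823 bp downstream. The first of these was chosen after its values had been seen.

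Enhancer candidates of the study are intergenic regions with low DNA methylation, accessible chromatin and H3K9ac, and they were defined in part from the same H3K9ac regions. The husk region overlapped a candidate at 17 broad sites (2.84%, 1.78 to 4.51%), against 2.73% (2.45 to 3.03%) of the narrower sites. Over all other one-to-one sites the share was 2.85%. The intervals of the broad and narrower sites overlap. However, the husk region searched was longer at the broad sites, with a median of 2543.5 bp against 921 bp at the narrower sites. Similar shares per site therefore do not mean similar numbers of candidates per bp, which were not compared. With at least 50% of the candidate required inside the husk region, the numbers were 11 broad sites (1.84%, 1.03 to 3.26%) and 2.26% (2.01 to 2.54%) of the narrower sites, and without the sites of ratio 2 or more, 9 broad sites had a candidate. In all, 21 candidates were involved, 14 husk specific, 5 V2-IST specific and 2 shared.

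The husk-specific candidates mostly stood clear of the V2-IST region. Of the 14, 13 had no base in the V2-IST region of the site, whereas all 5 V2-IST-specific and both shared candidates overlapped the V2-IST region. Of these 13, 1 lay wholly inside the husk region, 5 (this one included) had at least 50% of their length inside it, and 8 only reached into it, in 1 case by 2 bp. At narrower sites, 7 of 41 husk-specific candidates had no base in the V2-IST region, and over all other one-to-one sites 58 of 100. A longer husk extension leaves more room for such candidates, so these counts scale with region length. V2-IST-specific and shared candidates had to overlap a V2-IST region by definition, so their side of the contrast was set in advance. That a husk-specific candidate falls outside the V2-IST region also follows in part from how candidates were defined. At the longest husk region, chr1:277128747-277136125, a husk-specific candidate shared 816 bp with the husk region and none with the V2-IST region. A site at chr4:165708980-165713672, with 4693 bp in husk and 2824 bp in V2-IST, overlapped 2 candidates, of which a shared one contained the whole V2-IST region. At chr8:13180902-13184118, with 3217 bp in husk and 2687 bp in V2-IST, the V2-IST region enclosed a whole V2-IST-specific candidate. At chr1:277889770-277894068, with 4299 bp in husk and 2894 bp in V2-IST, a husk-specific candidate shared 324 bp with the husk region.

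Of the 3 maize enhancer-related loci examined, 1 had a broad shared site within 10 kb. DICE is a distal element that the paper treats as a putative enhancer of bx1, which encodes the first enzyme specific to benzoxazinoid defence compounds. The broad shared site nearest to DICE, at chr4:3672304-3673973, was 2707 bp away and lay at the listed gene Zm00001d048705. Its husk region measured 1670 bp and its V2-IST region 1631 bp, one of the smallest differences in the set, and the V2-IST region reached farther upstream while the husk region reached 149 bp farther downstream. The distal sequence of b1, a regulator of anthocyanin synthesis, which forms a repeat enhancer in another allele but is not repeated in B73, was 93666 bp from the nearest broad shared site. The enhancer of tb1, a regulator of branching, was 431064 bp from the nearest one.

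The surroundings of the sites were compared by the gap to the next region. The nearest other husk region was a median of 12679 bp away from broad sites (95% interval 10462 to 15506 bp) and 17129 bp (16378 to 17887 bp) from narrower sites. For the nearest other V2-IST region the medians were 34381 bp (28246 to 40555 bp) at broad sites and 34921 bp (33646 to 36130 bp) at narrower sites. Broad sites thus had husk regions somewhat closer by than narrower sites, while the intervals for V2-IST regions overlapped. The gap was shorter still, with a median of 8862 bp (6925 to 13293 bp), at the 117 one-to-one sites that reached the length limit but lay outside the ratio limits.

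**Figure D5:**
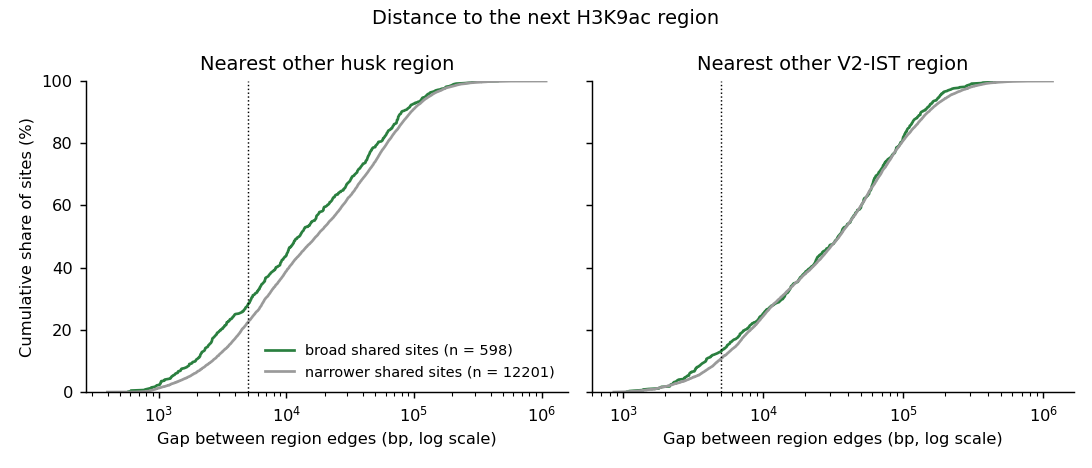
Cumulative share of sites against the gap between the edges of the site and of the nearest other husk region (left) or V2-IST region (right), in bp on a log scale, for broad (green, n = 598) and narrower shared sites (grey, n = 12201). The dotted line marks 5 kb, within which 27.9% of broad and 22.4% of narrower sites had another husk region.

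Another husk region lay within 5 kb of 27.9% of broad sites (24.5 to 31.7%), against 22.4% (21.7 to 23.1%) of narrower sites and 24.8% of all other one-to-one sites. The share was 29.5% at those narrower sites whose V2-IST region was at least 1000 bp, and 34.2% (26.2 to 43.2%) at the 117 sites outside the ratio limits, so it was not higher at the broad sites than at the sites most like them. A husk region that overlapped no V2-IST region lay within 5 kb of 94 broad sites (15.7%, 13.0 to 18.9%) and of 11.7% (11.1 to 12.3%) of narrower sites. Another V2-IST region lay within 5 kb of 78 broad sites (13.0%, 10.6 to 16.0%) and of 10.7% (10.2 to 11.3%) of narrower sites. The edge of a longer region is nearer to its neighbours by construction. Measured from centre to centre, 17.7% of broad sites had another husk region within 5 kb, and the difference from narrower sites shrank to 1.68 percentage points, against 5.53 from edge to edge.

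Broad shared sites rarely lay next to one another. The median gap between neighbouring broad sites on a chromosome was 1703499 bp, and 7 such pairs were within 50 kb of each other. The closest pair lay 1049 bp apart on chromosome 4. Its first site, at chr4:27560380-27562313, had 1934 bp in husk and 1502 bp in V2-IST, and its second, at chr4:27563363-27566367, had 3005 bp in husk and 1718 bp in V2-IST. At the other extreme, the site at chr1:161680275-161683012 was 450797 bp from the next husk region, with 2738 bp in husk and 1847 bp in V2-IST.

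Of 2109 windows of 1 Mb, 1624 held no broad shared site, 394 held 1, 72 held 2 and 19 held 3 or more. The densest window, which starts at 166 Mb on chromosome 1, held 5 of them among 9 one-to-one sites. Their husk regions measured 2208, 1703, 2200, 2267 and 2110 bp and, in the same order, their V2-IST regions 1753, 1696, 1500, 2136 and 1961 bp. This window was therefore dense in broad sites without being dense in shared sites. The next, which starts at 219 Mb on chromosome 5, held 4 broad sites among 20 one-to-one sites.

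All 10 chromosomes carried broad shared sites, from 26 on chromosome 10 to 117 on chromosome 1. As a share of one-to-one sites they ranged between 2.49% (1.71 to 3.63%) on chromosome 10 and 4.73% (3.96 to 5.64%) on chromosome 1. On the other 8 chromosomes the share lay between 2.67% and 4.11%, with intervals that overlapped one another. The interval of chromosome 6 (1.91 to 3.70%) lay below that of chromosome 1. In density, chromosome 10 had 0.172 and chromosome 1 0.381 broad sites per Mb.

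Along the chromosomes, broad sites followed the other shared sites closely. In the outer 20% of the chromosome span, 10% at each end, lay 206 broad sites (34.4%, 30.7 to 38.3%) and 30.5% (29.7 to 31.3%) of the narrower sites. In the middle 40% of the span were 147 broad sites (24.6%, 21.3 to 28.2%) and 28.7% (27.9 to 29.5%) of the narrower sites. Broad sites thus lay slightly more often in the outer 20%, by an amount close to the counting error. In the outer 10% of the span the shares were 18.4% of broad and 17.6% of narrower sites. Of the 117 sites that reached the length limit outside the ratio limits, 37.6% (29.4 to 46.6%) lay in the outer 20%. The lean was therefore not particular to the broad sites.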

How the data were processed

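H3K9ac ChIP-seq regions of husk (3 replicates) and V2-IST (2 replicates) were analysed as deposited: the authors aligned reads to AGPv4 with BWA, handled them with SAMtools, removed mapping qualities under 20, called peaks against input with MACS2 (q-value 0.001), and kept peaks shared by all replicates over 70% of their length. Tool versions are not given in the sources used here. The deposited values are region starts and ends in bp; depth cannot be read from them. Here, regions were paired by an overlap of at least 1 bp in Python 3.11.15 with numpy 2.4.6, pandas 2.3.3 and scipy 1.17.1, checked against bedtools 2.31.1 and tested on simulated data. Positions of genes and candidates came from lists supplied with the study. Expression values and ranks were not read, but the study had used expression to choose the listed genes. Of 826 listed gene IDs, 0 matched the RefSeq gene table, which is on another assembly, so gene groups were not analysed here, nor was sequence, for lack of an AGPv4 genome.

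Sites and lists were chosen with earlier results of these data known. Named loci were the 5 longest in each tissue, the longest per chromosome, those nearest each limit, the closest and most isolated sites, the 4 longest with a candidate, and any within 10 kb of b1, tb1 or DICE. Alternatives covered pairing, joining, limits, windows and means. No columns were left without a sample (0 columns).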

Additional observations from a re-analysis of the deposited data

How the results depend on the processing

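Of 96 recomputed values, 71 stayed within the 95% interval of the reported value or, for counts, within a factor of 1.5, and 25 moved further. The number of broad shared sites was 1261 with V2-IST regions of at least 1200 bp and 204 with at least 2000 bp. With these limits, listed genes were found at 82 and 22 sites and candidates at 32 and 10 sites. With the gene start inside the V2-IST region, 22 sites had a listed gene, and the V2-IST region then started at a median of -236 bp by construction. Candidates were found at 9 sites when the overlap had to cover 50% of both regions, at 9 with a ratio under 2, at 11 when 50% of the candidate had to be inside the husk region, and at 6 when it also had to overlap the V2-IST region. The last of these, and the split by gene length, were chosen after seeing the data. At a nested site, an overlap of 50% of both regions is the same as a ratio of at most 2. The settings of 50% overlap and of a ratio under 2 are therefore not independent, and they kept 542 and 541 sites. Another husk region was found for 17.7% of sites from centre to centre, 10.5% within 2 kb and 44.0% within 10 kb, and 18.4% of sites lay in the outer 10% of the span. The added husk length on the longer side differed from that at the comparison sites by 6.19 percentage points, and by 3.83 when all other one-to-one sites were used. Joining regions closer than 200 bp left the number of broad shared sites at 598. No broad site had another husk region closer than 584 bp or another V2-IST region closer than 1073 bp. Joining could therefore not change these sites, and its unchanged values, counted among the 71, say nothing about robustness.

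No paired analysis was possible because each list combines its replicates, and for the same reason none of the replicates was left out. Sequence and gene groups were planned but not run. Region lengths depend on depth and on the peak caller's limit, and their part was not tested.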
